A study of Sus scrofa with 6 samples.

Results

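The transcripts described here encode 7 families of ubiquitin ligase parts in porcine oocytes, taken by name as the genes whose symbol starts with TRIM or RNF and a digit, FBXO, FBXL, FBXW, CUL and a digit, or KLHL. Of the 10867 gene symbols that stood alone on an array probe, 128 met this rule, and they were read by 129 of the 12258 probes. Where a gene had more than 1 probe, the probe with the highest mean over the arrays stood for it. The families held 33 TRIM, 40 RNF, 19 FBXO, 8 FBXL, 5 FBXW, 4 CUL and 19 KLHL genes. The rule uses names only, although it was set with earlier results of these data known.

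Ubiquitin ligases are the enzymes that choose which proteins receive ubiquitin, a small protein tag that in many cases sends its target to the proteasome. Most RNF and TRIM proteins carry a RING finger, which brings the ubiquitin-loaded enzyme to the target. Cullins are scaffolds of larger ligases, in which F-box proteins (FBXO, FBXL and FBXW) serve as target receptors of CUL1, and KLHL proteins, through a BTB domain, as target receptors of CUL3. An oocyte resumes meiosis, is held at the second metaphase and then loses many maternal proteins, and timed protein destruction by ubiquitin ligases is part of these steps in frog and mouse.

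Total RNA was measured in 6 pools of 50 oocytes of grade I from pubertal crossbred Landrace gilts, on Affymetrix arrays. The 3 pools after maturation came from cumulus-oocyte complexes kept for 44 h at 38 °C under 5% CO2 in TCM-199 medium with albumin, cysteine, follicular fluid, hCG and eCG. The 3 pools before maturation are described as taken before culture, although their titles call them in vivo oocytes. The labels attach the culture protocol to all 6 pools, and here the descriptions were followed, by which the pools before maturation were not yet cultured. On that reading maturation and time in the medium cannot be told apart, and each array holds pooled oocytes, so nothing is known of single oocytes. The design text also names a dye test that sorted oocytes, which the labels assign to no array.

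Values are log2 levels made with RMA, and a difference is always after minus before maturation, so that a difference of 1 is a 2-fold change. Array medians lay between 5.62 and 5.64 after maturation and between 5.67 and 5.70 before it. Across probes the arrays correlated at 0.994 to 0.995 within the group after maturation, at 0.989 to 0.993 within the group before it, and at 0.965 to 0.983 between groups, with replicate 3 before maturation lowest against each array after it. Of 13 oocyte markers 3 fell (ZP3, ZP4 and KIT) and 0 rose in limma, with 3 and 0 at an unadjusted p under 0.05, and the summed linear level of all 13 was 28552 to 29600 after maturation and 30439 to 32737 before it. Of 19 markers of the somatic cells of the follicle (cumulus and granulosa) 10 fell and 5 rose. Their summed level was 5120 to 5337 after maturation and 8399 to 11397 before it, with replicate 3 before maturation highest. Of 8 theca and stroma markers 1 fell and 2 rose, and of 4 leukocyte and erythroid markers 0 fell and 1 rose. Of 5 endothelial markers 0 fell and 0 rose, with 0 and 2 at an unadjusted p under 0.05 and 0 and 1 with limma's trend and robust options. RMA values have no true zero, and 1 cumulus and granulosa marker that fell, ESR1, lay under the lower quartile of all probes on every array after maturation. HAPLN1 and PTX3, cumulus and granulosa markers that rose, lay under that quartile on every array before maturation. So did COL3A1 and POSTN, the theca and stroma markers that rose. The cumulus and granulosa markers that rose were HSD3B1 (3.95), HAPLN1 (2.51), GSTA1 (1.3), CD44 (1.21) and PTX3 (0.67). The 10 that fell had differences between -4.41 (HSD17B1) and -0.59 (VCAN). For the markers that fell, fewer somatic cells in a pool and less RNA per cell cannot be told apart in such bulk samples. The cause of the increases was not tested.

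Maturation went with lower levels of 8 of the 128 ligase genes and higher levels of 3 (limma, adjusted p under 0.05 over all probes). The 8 that fell were KLHL24, FBXL7, RNF19A, KLHL9, FBXO32, CUL7, TRIM4 and RNF167, and the 3 that rose were RNF212B, RNF144B and TRIM9. The decreases reached 3.67-fold and 5 of them were at least 2-fold, while the highest increase was 1.42-fold. The 8 make 6.25% of the set, against 8.07% of all probes called lower. The 3 make 2.34%, against 3.21% of all probes called higher. Both shares lay near those of the whole array. On the other 117 genes the fit made no call, and for 92 of these the 95% interval of the difference lay within a 1.5-fold change either way.

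The middle of the set lay where the middle of the array lay. The median difference of the 128 genes was 0.09, and that of all probes was 0.08. The interquartile range of the differences ran between -0.08 and 0.22 for the set and between -0.08 and 0.21 for all probes. A positive difference was seen in 85 genes (66.4%, against 65.4% of all probes) and a negative one in 43. At an unadjusted p under 0.05, 14 genes were lower (10.9%, against 13.4% of all probes) and 18 higher (14.1%, against 15.8% of all probes), so the balance of 8 to 3 belongs to the adjusted calls. The values of the 6 arrays did not overlap between groups for 16 genes that were lower after maturation (12.5%, against 14.4% of all probes) and for 22 that were higher (17.2%, against 21.7% of all probes). A decrease of at least 2-fold, whether or not it passed the test, was seen in 6 genes or 4.69% of the set, against 3.3% of all probes.

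**Figure D1:**
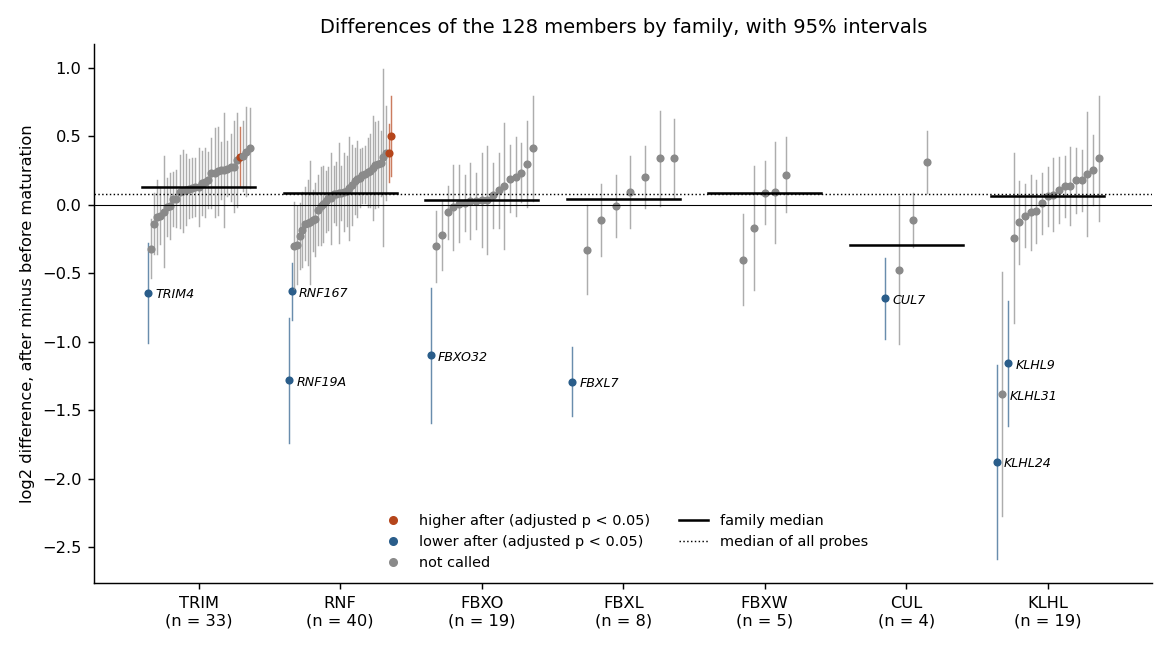
Log2 difference (after minus before maturation, vertical axis) of each of the 128 genes with its 95% interval, by family along the horizontal axis; black bars are family medians, the dotted line is the median of all probes, and colour marks genes that passed the test. Most genes sit near the median of all probes at 0.08, and the genes with a difference below -0.6 are named, KLHL24 at -1.88 being the lowest.

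No family had more than 2 genes called in either direction. Over all probes 8.07% were called lower and 3.21% higher, and at an unadjusted p under 0.05 13.4% were lower and 15.8% higher. Among 40 RNF genes 2 fell and 2 rose, with a median difference of 0.08, and at an unadjusted p under 0.05 these counts were 3 and 6. Among 33 TRIM genes 1 fell and 1 rose, with a median of 0.13, and with 2 and 7 at the unadjusted threshold. With a common median 1 TRIM gene was called lower and 4 higher. Of 32 F-box genes 2 fell and 0 rose, with 5 and 3 unadjusted. Of 19 KLHL genes 2 fell and 0 rose, with 3 and 1 at the unadjusted threshold. Of 4 cullins 1 fell and 0 rose, with 1 and 1 at that threshold. With the trend and robust options of limma 0 F-box, KLHL or cullin genes were called higher as well. The medians of the F-box and KLHL genes were 0.03 and 0.06, and they were -0.01 each with cyclic loess. The median of the 4 cullins was -0.29, and it was 0.20 when ribosomal protein genes were held level.

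The 2 KLHL genes that fell include the lowest difference of the set. KLHL24 encodes a receptor of CUL3 ligases, known from human skin disease in which its stabilised form removes keratin 14. Its log2 level was 5.68, 5.70 and 6.16 after maturation and 7.41, 7.24 and 8.52 before it. Every array after maturation lay below every array before it, and replicate 3 was the highest of both groups. The means were 5.85 ± 0.27 and 7.72 ± 0.69 (SD, n = 3 each), so KLHL24 fell by 1.88 with a standard error of 0.31 (95% interval -2.58 to -1.17, adjusted p = 0.00672), a 3.67-fold lower level.

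KLHL9, which in human cells works with KLHL13 in a CUL3 ligase of Aurora B during mitosis, measured 4.92, 4.62 and 5.01 after maturation and 5.67, 5.89 and 6.45 before it. The groups did not overlap, and replicate 3 was again the highest of both. The lowest value, in replicate 2 after maturation, lay not far above that array's lower quartile of all probes, 4.45. KLHL9 fell by 1.16 (standard error 0.20, 95% interval -1.61 to -0.70, adjusted p = 0.00828), a 2.23-fold lower level. KLHL13 is a close paralog, and how the array's probe divides them was not tested.

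KLHL31, a receptor gene needed in mouse skeletal muscle, had the second lowest difference of the set but the most scattered values before maturation. It measured 4.80, 4.55 and 4.64 after maturation and 5.15, 5.97 and 7.02 before it. Although the groups did not overlap, the difference of -1.38 had a wide 95% interval, -2.27 to -0.49, and was not called (adjusted p = 0.0567). With the replicate number as a block it was called (adjusted p = 0.0285), as it was without replicate 1 before maturation (-1.83, adjusted p = 0.00432). Of the 16 other KLHL genes none was called, and their differences ran between -0.24 for KLHL28 and 0.34 for KLHL25. Replicate 3 before maturation stood apart for KLHL28 too, at 7.46 against 6.25 and 6.55 in the other pools before maturation, with 6.38, 6.65 and 6.50 after it.

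Among the F-box receptors the decrease with the smallest adjusted p of the set was that of FBXL7, a receptor with leucine-rich repeats. FBXL7 measured 6.25, 6.15 and 6.32 after maturation and 7.63, 7.35 and 7.63 before it. Replicates of a group lay close together and far from those of the other. FBXL7 fell by 1.29 (standard error 0.11, 95% interval -1.54 to -1.04, adjusted p = 0.000229), a 2.45-fold lower level.

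FBXO32, known as atrogin-1, is the F-box gene that rises in wasting muscle under FOXO transcription factors. In these oocytes it measured 5.57, 5.52 and 5.85 after maturation and 7.21, 6.28 and 6.76 before it, without overlap. FBXO32 fell by 1.10 (standard error 0.22, 95% interval -1.59 to -0.60, adjusted p = 0.0152), a 2.14-fold lower level. The call was lost without replicate 1 after maturation (adjusted p = 0.0726) and without replicate 2 after maturation (adjusted p = 0.0716), where the difference was -1.06 and -1.04.

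FBXL17, which in human cells removes misassembled BTB proteins, was the 1 gene with 2 probes, and these disagreed. The brighter probe measured 7.11, 7.09 and 7.30 after maturation and 7.36, 7.32 and 7.80 before it, a difference of -0.33 (adjusted p = 0.169). The other measured 6.03, 5.81 and 5.55 after maturation and 5.59, 5.55 and 5.26 before it, a difference of 0.33 (adjusted p = 0.178). Neither passed the test, and the direction of FBXL17 is not settled by this array. FBXW5, a WD-repeat F-box gene, measured 6.66, 6.50 and 6.51 after maturation and 7.28, 6.74 and 6.85 before it. Its difference of -0.40 was not called (adjusted p = 0.113), and with the replicate block it was (adjusted p = 0.0496).

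Of the 4 cullin genes measured, only CUL7 passed the test. CUL7, the scaffold that pairs with FBXW8 and is mutated in human 3-M growth syndrome, measured 5.83, 5.66 and 5.81 after maturation and 6.68, 6.22 and 6.45 before it. All pools after maturation lay below all pools before it. CUL7 fell by 0.68 (standard error 0.13, 95% interval -0.98 to -0.39, adjusted p = 0.0125), a 1.61-fold lower level. The call was lost without replicate 2 after maturation (-0.63, adjusted p = 0.0601).

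Its partner FBXW8 measured 9.89, 10.07 and 10.02 after maturation and 9.98, 9.77 and 9.57 before it, with overlap and a difference of 0.22 (95% interval -0.06 to 0.50, adjusted p = 0.260). CUL9, a cullin related to CUL7, had a difference of -0.11 (95% interval -0.31 to 0.08, adjusted p = 0.409), which was 0.38 when ribosomal protein genes were held level. CUL4A, the scaffold that binds targets through DDB1, measured 7.42, 7.50 and 7.65 after maturation and 7.16, 7.29 and 7.18 before it. The CUL4A groups did not overlap, but the difference of 0.31 was not called (95% interval 0.09 to 0.54, adjusted p = 0.0775). It was called higher with each array set to a common median (adjusted p = 0.0407) and after a second quantile normalization (adjusted p = 0.0232). CUL2, the scaffold of the VHL ligase, measured 5.12, 4.92 and 5.37 after maturation and 5.19, 5.49 and 6.16 before it, with overlap and a difference of -0.48 (95% interval -1.01 to 0.06, adjusted p = 0.214). CUL1, CUL3, CUL4B and CUL5 were not analysed here, so the scaffolds that carry the F-box and KLHL receptors have no value beside them.

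The RNF genes that passed the test differ in their chemistry. RNF19A and RNF144B are RBR ligases, in which ubiquitin passes through the ligase itself before it reaches the target, and they moved in opposite directions. RNF19A, also named dorfin, measured 8.13, 8.20 and 8.10 after maturation and 9.06, 9.28 and 9.93 before it. The values lay close together after maturation and apart before it, with means of 8.14 ± 0.05 and 9.42 ± 0.45 (SD, n = 3 each). RNF19A fell by 1.28 (standard error 0.20, 95% interval -1.74 to -0.82, adjusted p = 0.00515), a 2.43-fold lower level.

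RNF144B, an RBR ligase gene induced by p53 in human cells, measured 10.14, 10.16 and 10.08 after maturation and 9.66, 9.86 and 9.73 before it. The groups did not overlap, and RNF144B rose by 0.38 (standard error 0.09, 95% interval 0.17 to 0.59, adjusted p = 0.0353), a 1.3-fold higher level. The call did not hold with cyclic loess (0.32, adjusted p = 0.0603), and of the 6 fits that left out 1 array it held in 1, without replicate 2 before maturation. The other RBR genes among the RNF members had differences of 0.09 (RNF14) and 0.27 (RNF216), neither called.

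RNF167, a membrane RING ligase of endosomes and lysosomes, gave the tightest decrease among the RNF genes. It measured 6.47, 6.35 and 6.35 after maturation and 7.10, 6.97 and 6.98 before it. Each group spanned less than the gap between them, and RNF167 fell by 0.63 (standard error 0.09, 95% interval -0.84 to -0.42, adjusted p = 0.00354), a 1.55-fold lower level.

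RNF212B, a gene of meiotic crossover formation in mouse, had the highest increase of the set. It measured 7.65, 7.26 and 7.61 after maturation and 6.93, 7.14 and 6.94 before it. The lowest pool after maturation, replicate 2, lay only just above the highest pool before it, also replicate 2. RNF212B rose by 0.50 (standard error 0.13, 95% interval 0.21 to 0.80, adjusted p = 0.0408), a 1.42-fold higher level. Of the 6 fits that left out 1 array the call held in 1, without replicate 2 after maturation, and it did not hold with the trend and robust options (adjusted p = 0.0527). RNF222 had a difference of 0.38 that was not called (adjusted p = 0.142) and was called with the replicate block (adjusted p = 0.0469).

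The TRIM genes that passed the test did so by narrow margins. TRIM4, a ligase of antiviral RIG-I signalling in human cells, measured 4.39, 4.77 and 4.98 after maturation and 5.28, 5.24 and 5.55 before it. The lowest of these, in replicate 1 after maturation, lay close to that array's lower quartile of all probes, 4.37. The groups did not overlap, and TRIM4 fell by 0.64 (standard error 0.16, 95% interval -1.01 to -0.28, adjusted p = 0.0383), a 1.56-fold lower level. The call was lost in 4 of the 6 fits that left out 1 array, those without replicate 1 or 2 after maturation and without replicate 2 or 3 before it, with adjusted p up to 0.105.

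TRIM9, a neuronal ligase of axon branching in mouse, measured 4.60, 4.71 and 4.68 after maturation and 4.40, 4.36 and 4.20 before it. These values lie close to the lower quartile of all probes, which was 4.33 to 4.45 on the arrays after maturation and 4.27 to 4.30 on those before it. TRIM9 rose by 0.35 (standard error 0.09, 95% interval 0.13 to 0.56, adjusted p = 0.0498), a 1.27-fold higher level. The call held in 0 of the 6 fits that left out 1 array, where adjusted p ran between 0.056 and 0.143. It was also lost with the replicate block (adjusted p = 0.0603). TRIM67, TRIM9's close relative, had a difference of 0.36 without overlap that was not called (adjusted p = 0.0759), and TRIM44 had one of -0.32 (adjusted p = 0.0664).

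**Figure D2:**
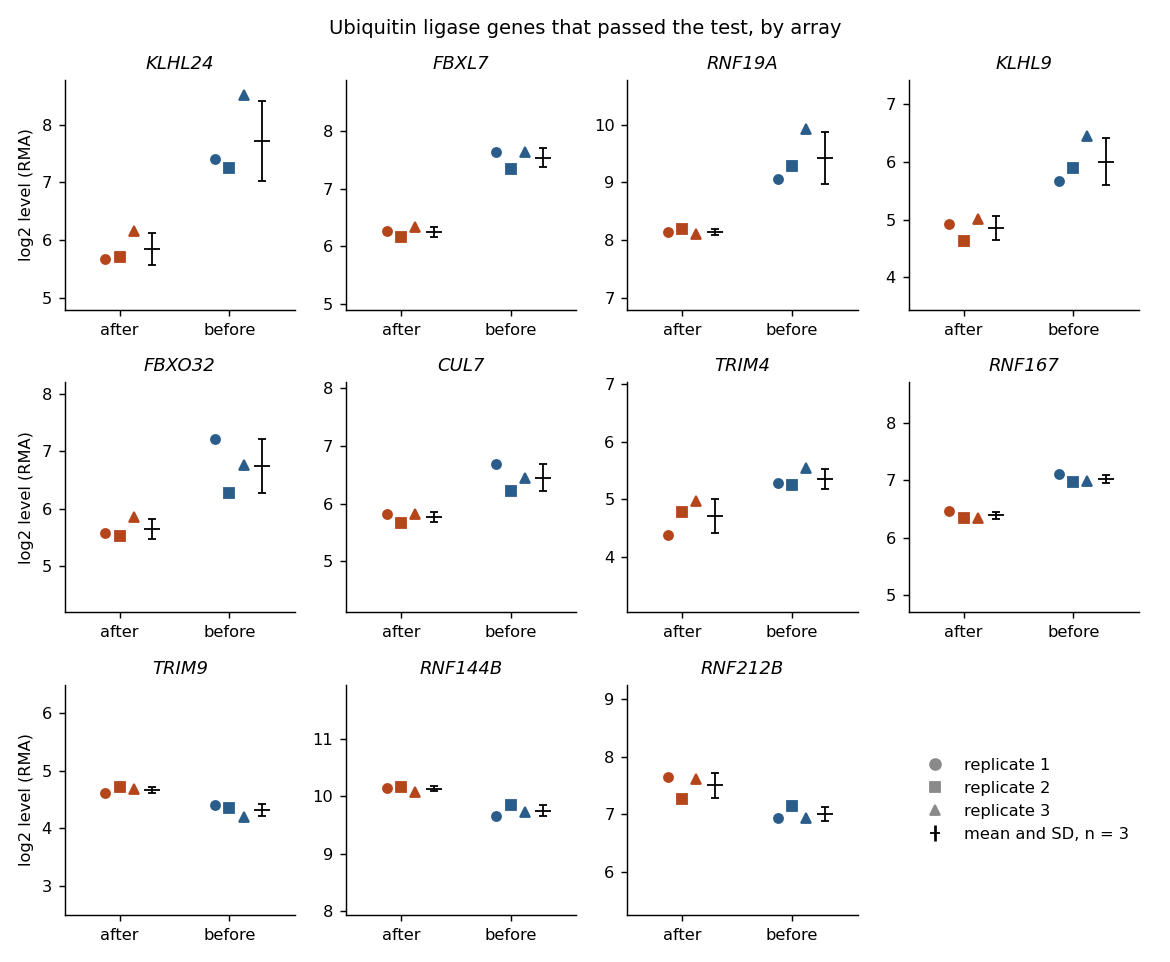
Log2 level on each array (vertical axis, RMA values; every panel spans the same number of log2 units) of the 11 genes that passed the test, with the 3 pools after maturation left and the 3 pools before it right; symbols give the replicate number, and bars are mean and SD. In each panel the 2 groups do not overlap, and replicate 3 is the highest pool before maturation for KLHL24, RNF19A, KLHL9 and TRIM4.

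For 4 of the genes that fell, KLHL24, RNF19A, KLHL9 and TRIM4, the highest value before maturation came from replicate 3, the pool with the highest summed level of cumulus and granulosa markers. Without that pool KLHL24, RNF19A and KLHL9 were still called, with differences of -1.48, -1.03 and -0.93, and TRIM4 was not (-0.55, adjusted p = 0.0999). For the other genes that fell, FBXL7, RNF167, CUL7 and FBXO32, the highest value before maturation came from replicate 1. For FBXL7 replicates 1 and 3 were almost equal (7.631 and 7.630). The part of the somatic cells in these differences was not tested.

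Ligase genes with a known part in meiosis, in early embryos or as a cullin scaffold were followed whatever their values. Of 36 such genes listed, 19 were measured, and of these 1 (CUL7) fell and 18 were not called. For 15 of the 18 the 95% interval lay within a 1.5-fold change. The intervals of CUL2, FBXW7 and RNF8 were wider than that.

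FBXO43, also named EMI2, holds the mature egg of frog and mouse at the second metaphase by blocking the anaphase-promoting complex. It measured 10.01, 10.24 and 10.17 after maturation and 9.80, 9.99 and 10.05 before it. The groups overlapped, and the difference of 0.19 was not called (95% interval -0.06 to 0.44, adjusted p = 0.272). FBXO5, its relative EMI1, blocks the same complex earlier in the cell cycle. FBXO5 measured 11.04, 11.05 and 11.11 after maturation and 10.73, 10.81 and 10.95 before it, without overlap. The difference of 0.23 was not called (95% interval 0.02 to 0.45, adjusted p = 0.147).

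FBXW7, the receptor for cyclin E, measured 6.75, 6.29 and 6.96 after maturation and 6.52, 6.90 and 7.09 before it, with overlap and a difference of -0.17 (95% interval -0.62 to 0.28). FBXO30, needed for meiotic chromosome behaviour in mouse oocytes, had a difference of 0.03 (95% interval -0.31 to 0.37). FBXO34, which acts in meiotic resumption of mouse oocytes, had one of 0.01 (95% interval -0.27 to 0.29). These 3 receptors were not called. FBXO15, a gene of mouse embryonic stem cells, measured 10.58, 10.66 and 10.56 after maturation and 10.64, 10.62 and 10.51 before it. Its difference of 0.01 had a 95% interval of -0.19 to 0.22.

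FBXL5, the iron-sensing receptor for the iron regulatory proteins, had a difference of 0.09, FBXL19, a receptor at CpG islands, one of 0.20, and KLHL8 one of 0.25. RNF7, the RING partner of CUL5, measured 7.43, 7.62 and 7.57 after maturation and 7.12, 7.23 and 7.37 before it. The RNF7 groups did not overlap, and the difference of 0.30 was not called (95% interval 0.06 to 0.54, adjusted p = 0.0997), while after a second quantile normalization it was (adjusted p = 0.0371). RNF4, which reads SUMO chains, had a difference of 0.14, and RNF8, a ligase of the DNA damage response, one of -0.30 (95% interval -0.62 to 0.02). TRIM21, the cytosolic antibody receptor used to remove proteins from oocytes in experiments, measured 5.82, 5.60 and 5.53 after maturation and 5.45, 5.35 and 5.33 before it. TRIM21 did not overlap between groups, and its difference of 0.27 was not called (95% interval 0.03 to 0.52, adjusted p = 0.136). TRIM37, a ligase that limits centriole formation, and RNF121 had differences of -0.14 and -0.04, which were 0.36 and 0.46 when ribosomal protein genes were held level.

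**Figure D3:**
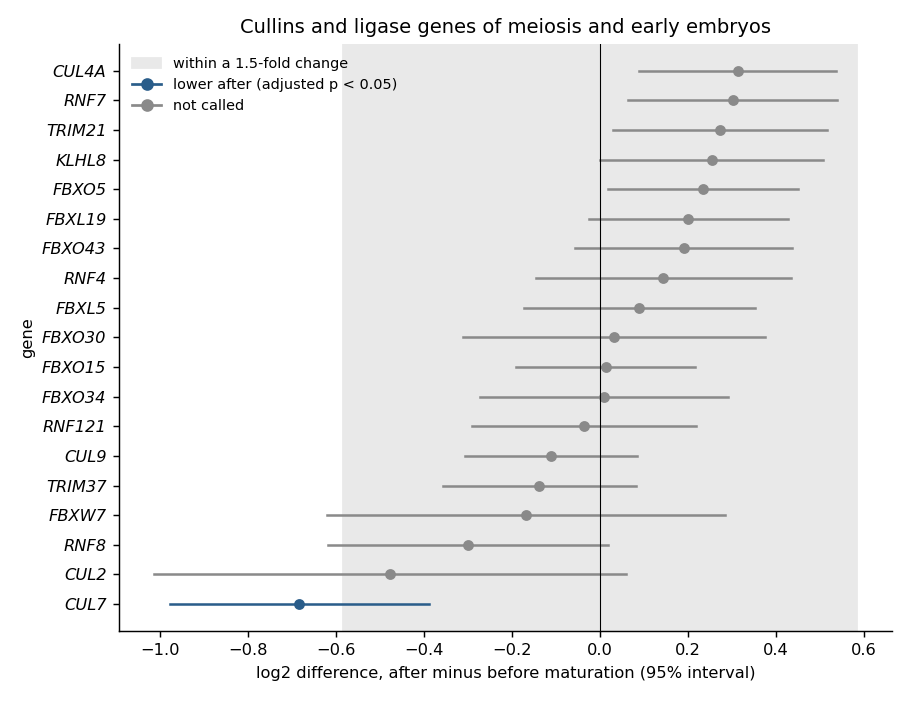
Log2 difference (horizontal axis, after minus before maturation, with 95% interval) of the 19 measured cullin genes and ligase genes of meiosis and early embryos (vertical axis); grey shading marks changes within 1.5-fold. CUL7 at -0.68 is the only gene that passed the test, and the intervals of CUL2, FBXW7 and RNF8 are the only others that leave the shading.

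The rest of the ubiquitin ligase pathway was read from lists of other gene names. Of 119 such genes 10 fell and 1 rose, with a median difference of 0.02, and the 10 make 8.4% against 8.07% of all probes. Over all probes 3.21% were called higher, and at an unadjusted p under 0.05 13.4% were lower and 15.8% higher. With the trend and robust options 1021 of the 12258 probes were called lower and 429 higher. The counts of each list below stand beside these. With the replicate block 16 fell and 3 rose, and over all 12258 probes 1226 fell and 621 rose, against 989 and 394 without it. Without replicate 1 after maturation 2 fell, and without replicate 2 after maturation 0 fell, where 531 and 545 of all probes were called lower.

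Of 31 genes of the cullin-RING core and its regulators 2 fell and 0 rose, with 4 and 2 at an unadjusted p under 0.05 and 3 and 0 with the trend and robust options. NEDD8, the ubiquitin-like protein that activates cullins, measured 6.68, 6.93 and 7.13 after maturation and 7.74, 7.70 and 7.41 before it. NEDD8 fell by 0.70 (standard error 0.14, adjusted p = 0.0176). KEAP1, the CUL3 receptor for NRF2, measured 5.77, 5.43 and 5.85 after maturation and 6.35, 6.30 and 6.14 before it, and fell by 0.58 (standard error 0.13, adjusted p = 0.0255). CAND1, which exchanges the receptors on cullins and was chosen for mention after its value was seen, had a difference of -1.03 that was not called (adjusted p = 0.0518). Of the 6 fits that left out 1 array the call of NEDD8 was lost in 3 (adjusted p up to 0.0674) and that of KEAP1 in 4 (adjusted p up to 0.0702). The call of KEAP1 was also lost after a second quantile normalization (-0.49, adjusted p = 0.0599).

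Of 12 genes of the anaphase-promoting complex and its partners, the ligase that FBXO43 and FBXO5 restrain, 0 fell and 0 rose in limma. At an unadjusted p under 0.05 these counts were 1 and 0, and with the trend and robust options 0 and 0.

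Of 15 HECT and RBR ligases outside the families 4 fell and 0 rose, with 4 and 1 at the unadjusted threshold and 4 and 0 with the trend and robust options. HECT ligases, like RBR ligases, carry ubiquitin themselves. UBE3C, a HECT ligase that works at the proteasome, measured 5.45, 5.31 and 5.47 after maturation and 6.20, 5.93 and 6.51 before it, and fell by 0.80 (adjusted p = 0.0109). UBE3A, the Angelman syndrome ligase, fell by 0.54 (adjusted p = 0.0232), HUWE1 fell by 0.51 (adjusted p = 0.0397) and HERC2 fell by 0.61 (adjusted p = 0.0421). Leaving out 1 array, the call was lost in 1 of 6 fits for UBE3C, 4 for UBE3A, 5 for HUWE1 and 5 for HERC2, with adjusted p up to 0.142. After a second quantile normalization UBE3A, HUWE1 and HERC2 were not called (adjusted p = 0.0524, 0.0511 and 0.0876). With a common median HUWE1 and HERC2 were not called (adjusted p = 0.0521 and 0.0519), nor was HERC2 with cyclic loess (adjusted p = 0.0516).

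Of 61 other RING ligases 4 fell and 1 rose, with 8 and 11 at the unadjusted threshold and 4 and 2 with the trend and robust options. UBR4, a ligase that reads protein ends, fell by 0.67 (adjusted p = 0.0203), RING1, which marks histone H2A in Polycomb complexes, fell by 0.76 (adjusted p = 0.0207) and RLIM, a nuclear ligase of X inactivation in mouse, fell by 0.39 (adjusted p = 0.0261). PJA2, a ligase of protein kinase A subunits named after its value was seen, fell by 0.85 (adjusted p = 0.0343). SIAH3 measured 4.96, 5.08 and 4.77 after maturation and 4.33, 4.54 and 4.44 before it, and rose by 0.50 (adjusted p = 0.0250). Leaving out 1 array, the call was lost in 1 of 6 fits for UBR4, 2 for RING1, 3 for PJA2, 4 for SIAH3 and 6 for RLIM. RLIM was also not called after a second quantile normalization (-0.25, adjusted p = 0.0958) or with the trend and robust options (adjusted p = 0.0728), nor was PJA2 after that normalization (-0.70, adjusted p = 0.071). Of the 11 pathway genes called in either direction, the 10 that fell were not called once ribosomal protein genes were held level.

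Position on the chromosomes was read as gene order in RefSeq. With at most 5 coding genes between neighbours, 27 members made up 11 groups, of which 9 were pairs. The longest group was an unbroken row of 6, with RNF39, TRIM31, TRIM40, TRIM10, TRIM15 and TRIM26 next to each other. Their differences lay between 0.16 and 0.41, all positive and none called, where 65.4% of all probes were positive. In 4 of the 6 the groups did not overlap, as in 21.7% of all probes in this direction, and the row was singled out after its values were seen. With a common median 2 of them were called higher, with the trend and robust options 1, and with ribosomal protein genes held level all 6. None was called with the replicate block, a second quantile normalization (0.07 to 0.32), cyclic loess (0.05 to 0.31) or 1 array left out. These are dim probes, with 2 under the lower quartile on all 6 arrays and 2 more on all arrays before maturation. TRIM31, a ligase of antiviral signalling in mouse, had the highest difference of the row and measured 4.43, 4.76 and 4.29 after maturation and 4.09, 4.03 and 4.12 before it (adjusted p = 0.0748).

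Other groups of neighbours had differences of like or of unlike sign, and those that hold a called gene are given. RNF19A and FBXO43 have 2 coding genes between them, and RNF19A fell by 1.28 while FBXO43 had a difference of 0.19. CUL7 and CUL9 have 4 between them, and CUL7 fell by 0.68 while CUL9 had a difference of -0.11. The differences between these neighbours were not tested. No pair of neighbours had both genes called.

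The choice of scaling sets how many genes of the set are called higher, and much less how many are called lower. On the deposited scale 8 fell and 3 rose, with a common median 8 and 7, after a second quantile normalization 8 and 5, and with cyclic loess 8 and 1. Of all probes called in either direction, those called lower made 71.5% on the deposited scale and 49.3% with a common median. They made 59.2% after a second quantile normalization and 80.6% with cyclic loess. Holding the mean of 42 ribosomal protein genes level adds 0.50 to every difference by construction, after which 6 genes of the set were called lower and 106 higher. Of the 12258 probes 500 were called lower and 9805 higher on that scale, so lower calls made 4.85% of all calls. KLHL24, FBXL7, RNF19A, KLHL9 and FBXO32 were still called lower there, with differences of -1.38, -0.80, -0.79, -0.66 and -0.60, and KLHL31 was the other gene called lower (-0.89). CUL7, TRIM4 and RNF167 were not called there, with differences of -0.19, -0.15 and -0.14 (adjusted p = 0.283, 0.393 and 0.414).

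**Figure D4:**
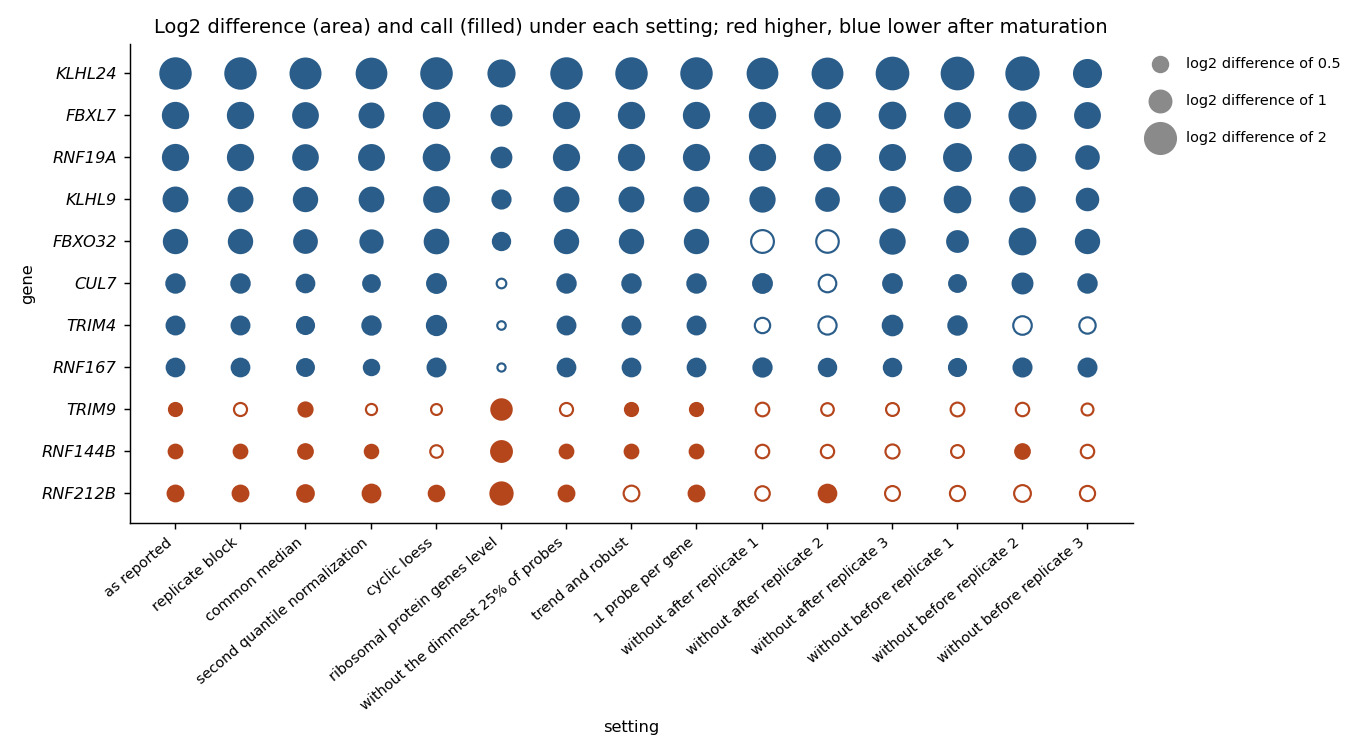
Difference and call of the 11 genes that passed the test (vertical axis) under each way of processing the arrays (horizontal axis); the area of a circle is the size of the log2 difference, filled circles have an adjusted p under 0.05, blue is lower and red higher after maturation. The rows of KLHL24, FBXL7, RNF19A and KLHL9 are filled throughout, RNF167 is open only when ribosomal protein genes were held level, and the 3 genes that rose are open in most columns that leave out an array.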

How the data were processed

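The deposited table holds log2 expression values of 6 arrays, which the authors made with RMA, per the submitters' processing notes. The RMA version and options are not given in these sources, nor is any probe filter. RNA was amplified in 2 rounds from 100 ng, per the labels' protocols. The log2 scale was inferred from the method and the values' range. Detection was not assessed, so a level may lie at background, and levels of different probes were not compared. The number of arrays limits the precision.

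Probes were named from the platform annotation: 10922 had 1 symbol (207 of them repeat it in the cell), 268 had several and 1068 had none listed. A cell that repeats 1 symbol was counted as 1 symbol. Left out were 2 probes of the families with several symbols, RNF130 and FBXL21. RefSeq gene order (Sscrofa11.1) was used only for names and neighbours, and 119 of the 128 members were found there by gene identifier.

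All probes were fitted together with limma 3.58.1 under R 4.3.3 (two-sided lmFit and eBayes, Benjamini-Hochberg over all 12258 probes, threshold 0.05), after minus before maturation, without a block. An exact two-sided permutation test of 3 against 3 arrays cannot go below 0.10, so none was used. The labels call the arrays biological replicates and do not say how pools were formed, so p-values measure the spread between these pools. Deviations from the group means correlated at 0.283, 0.120 and 0.142 between arrays of the same number, and at -0.17 to 0.02 between arrays of unlike number. Each same-number value was the highest for both of its arrays. These same-number correlations are low and only a hint that the numbers pair the arrays, and the main fit did not use it. The blocked value is given where the block changes the call of a member of the families. For the other pathway genes only the counts called with the block are given, and the genes it added are not named. Arrays of a group differed by a median of 0.125 to 0.168 per probe, so none was a copy.

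The members and lists were chosen with earlier results of these data known. Named were all called members, 36 genes with a known role of which 19 were measured, up to 4 called genes per pathway list with the smallest p, and genes with more than 1 probe, 40 genes in all. Other genes named (KLHL31, KLHL28, KLHL25, FBXW5, FBXW8, RNF14, RNF216, RNF222, TRIM44, TRIM67, the neighbours, CAND1 and PJA2) were chosen after their values were seen. The fit was tested on simulated data, where it called 39 of 40 probes with a set difference of -2, 28 of 40 at -1 and 16 of 40 at -0.5. At 0.5 it called 14 of 40 and at 1 it called 32 of 40, so many small changes were missed. Fewer probes were changed there than were called in the data, so these shares need not hold for the real arrays. Alternatives were the replicate block, 4 scalings, a filter on the dimmest 25% of probes, limma's trend and robust options, 1 probe per gene and leaving out each array. Python 3.11.15, pandas 2.3.3 and matplotlib 3.10.9 made the tables and figures.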

Additional observations from a re-analysis of the deposited data

How the results depend on the processing

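Of the 128 ligase genes 8 were called lower and 3 higher on the deposited scale. With the replicate number as a block 10 were called lower and 3 higher, and of the 119 other pathway genes 16 and 3, against 10 and 1. Over all 12258 probes the block gave 1226 lower and 621 higher, against 989 and 394. The block added KLHL31, FBXW5 and RNF222 and removed TRIM9. A common median gave 7 members and 4 pathway genes higher. A second quantile normalization gave 5 members higher, and 4 pathway genes lower and 3 higher. Cyclic loess gave 1 member higher, and trend and robust gave 2 pathway genes higher. With the ribosomal protein genes held level 106 members and 82 pathway genes were called higher and 1 pathway gene lower. The scaling adds the same amount to every probe, so small negative differences turned positive. Among these were CUL9 (0.38), RLIM (0.10), RNF121 (0.46) and TRIM37 (0.36), and also CUL2 (0.02), FBXL17 (0.17), FBXW7 (0.33) and RNF8 (0.20).

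Leaving out 1 array gave 5 to 9 members lower and 0 to 1 higher, and 0 to 9 pathway genes lower and 0 to 2 higher. The 5 came without replicate 2 after maturation, and each of the 6 arrays left out took the higher members to 0 or 1. Pathway genes called lower numbered 2 and 0 without replicates 1 and 2 after maturation. KLHL24, FBXL7, RNF19A, KLHL9 and RNF167 were called in all 6 of these fits. Leaving out an array also lowers the number of arrays from 6 to 5, and the cause of a lost call was not tested. Protein and promoter sequences of the members were not analysed here. With 3 arrays a group, 25 of the 117 genes that were not called have intervals reaching a 1.5-fold change.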
